A study of Mus musculus with 13 samples.

Results

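The 36 genes described here encode the core proteins of the chemical synapse. They were taken by gene symbol from the deposited peak annotation and fall into 4 groups by the role of the protein: 19 genes of the synaptic vesicle and its fusion machinery, 6 genes of the presynaptic active zone, 5 genes of adhesion across the synaptic cleft and 6 genes of the postsynaptic scaffold. All 36 were named by at least 1 peak of the series, as were 18745 RefSeq protein-coding genes in all, which form the background below. A gene was called marked by an antibody when both libraries of that antibody listed a peak no more than 2000 bp from the start of one of its transcripts.

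The chromatin came from olfactory basal cells of wild-type C57BL6 mice, isolated from adult olfactory epithelium by their c-KIT expression and grown as adherent cultures on gelatin with EGF, FGF2, heparin, BMP4 and SB431542. H3K27me3, RING1B, CBX8 and H3K27ac were mapped by chromatin immunoprecipitation followed by sequencing (ChIP-seq) in 2 libraries each, and 5 inputs were sequenced. Cultures of 3 lines were used. The first replicates of H3K27me3 and RING1B were made from line 1 (passage 12). From line 2 came H3K27me3 replicate 2 (passage 11), H3K27ac replicate 1 (passage 13), and RING1B replicate 2 and CBX8 replicate 1 (both passage 19), while line 3 at passage 14 was used for CBX8 replicate 2 and H3K27ac replicate 2. Antibody and culture therefore cannot be told apart for most pairs of libraries. No treatment, mutant or neuron was profiled, so every comparison here is between genes or between antibodies within these precursor cultures.

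H3K27me3 is the histone mark set by Polycomb repressive complex 2 (PRC2). RING1B is the ubiquitin ligase at the core of Polycomb repressive complex 1 (PRC1), and CBX8 is a chromodomain subunit through which a form of PRC1 can bind H3K27me3. H3K27ac is a mark of active promoters and enhancers, set on the same lysine, so that a single histone tail cannot carry both marks. At a synapse, calcium entering the nerve terminal is sensed by synaptotagmins, which trigger fusion of vesicles docked at the active zone by SNARE proteins. Neurexins and neuroligins join the terminal to the postsynaptic side, where scaffolds of the DLG, SHANK and HOMER families hold receptors in place. Olfactory sensory neurons, the progeny of the basal cells, form such terminals in the olfactory bulb, whereas the basal cells themselves make no synapses.

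The markers fixed for the cell types of the epithelium were in mixed states. All 4 horizontal basal cell markers (Krt5, Krt14, Trp63 and Itgb4) carried H3K27ac, a mark of 59.6% of background genes. Among the globose basal cell markers, Sox2 carried H3K27ac with RING1B. Kit, the receptor the cells were isolated by, and Lgr5 and Neurog1 carried H3K27me3 with RING1B. Omp and Adcy3 were acetylated among 5 olfactory neuron markers, Adcy3 with RING1B, whereas Gng13 and Gap43 carried H3K27me3. None of 4 sustentacular cell markers was acetylated, and Cyp2g1, Ermn and Muc2 carried H3K27me3. The lists differ greatly in length, with 7578 and 32918 peaks for RING1B and 9926 and 77417 for CBX8, so that the shorter list limits each call made from both replicates. The longer lists also hold more peaks at the members: 26 members had a RING1B peak at a start in replicate 2, against 10 in replicate 1.

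Promoter sequence is shown first for genes on which the results turn. RefSeq windows (GRCm38.p6, from 250 bases before to 50 bases after a transcript start, given in the direction of transcription) could be matched for 25 of the 36 genes, with 41 windows in all. In the following 6 windows the capitals mark CG dinucleotides, the base pair step that is dense in CpG islands. Syt2, Nlgn1, Dlg2 and Sv2b are members with H3K27me3 and with CBX8 in both libraries, Homer1 is a strongly acetylated member, and Vamp1 carried acetylation and RING1B together.
Syt2, chr1:134646362-134646661, plus strand: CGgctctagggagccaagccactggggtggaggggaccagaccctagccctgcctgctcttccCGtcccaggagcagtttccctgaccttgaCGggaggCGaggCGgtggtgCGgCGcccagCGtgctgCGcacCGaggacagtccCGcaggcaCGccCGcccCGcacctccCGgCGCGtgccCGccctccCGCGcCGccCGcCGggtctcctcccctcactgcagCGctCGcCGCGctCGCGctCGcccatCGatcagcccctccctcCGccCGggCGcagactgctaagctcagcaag
Sv2b, chr7:75308337-75308636, minus strand: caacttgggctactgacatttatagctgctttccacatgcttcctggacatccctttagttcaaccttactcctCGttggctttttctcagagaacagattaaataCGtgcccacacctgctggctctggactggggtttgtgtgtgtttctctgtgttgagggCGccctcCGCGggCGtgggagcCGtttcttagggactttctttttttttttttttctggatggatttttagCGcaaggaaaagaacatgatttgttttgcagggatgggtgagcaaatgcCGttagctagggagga
Nlgn1, chr3:26153937-26154236, minus strand: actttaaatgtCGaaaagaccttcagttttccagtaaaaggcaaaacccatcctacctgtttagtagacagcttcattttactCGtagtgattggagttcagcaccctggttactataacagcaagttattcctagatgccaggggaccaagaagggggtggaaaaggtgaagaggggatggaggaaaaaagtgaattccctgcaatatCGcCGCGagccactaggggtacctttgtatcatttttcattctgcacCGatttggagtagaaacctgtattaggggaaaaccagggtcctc
Dlg2, chr7:92234720-92235019, plus strand: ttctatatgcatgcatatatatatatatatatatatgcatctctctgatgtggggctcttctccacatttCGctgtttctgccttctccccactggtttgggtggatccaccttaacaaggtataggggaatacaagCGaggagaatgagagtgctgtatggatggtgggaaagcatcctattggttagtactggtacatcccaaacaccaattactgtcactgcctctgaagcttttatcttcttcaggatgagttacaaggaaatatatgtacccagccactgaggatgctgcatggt
Homer1, chr13:93303507-93303806, plus strand: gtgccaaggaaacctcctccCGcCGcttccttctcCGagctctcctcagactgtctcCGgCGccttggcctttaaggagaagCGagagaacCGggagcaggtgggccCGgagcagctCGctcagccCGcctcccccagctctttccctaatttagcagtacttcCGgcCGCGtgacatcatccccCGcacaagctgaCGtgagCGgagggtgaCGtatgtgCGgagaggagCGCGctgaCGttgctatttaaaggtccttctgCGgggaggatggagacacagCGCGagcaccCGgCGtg
Vamp1, chr6:125215331-125215630, plus strand: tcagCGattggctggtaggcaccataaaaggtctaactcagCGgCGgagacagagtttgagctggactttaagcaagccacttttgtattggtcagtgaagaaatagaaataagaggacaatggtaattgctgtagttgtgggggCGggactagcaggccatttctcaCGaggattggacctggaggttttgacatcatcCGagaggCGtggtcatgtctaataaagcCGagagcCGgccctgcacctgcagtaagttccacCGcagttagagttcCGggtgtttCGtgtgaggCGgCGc
The Syt2 window held 34 CpG dinucleotides, the Homer1 window 26 and the Vamp1 window 14. The Sv2b window held 9, the Nlgn1 window 6 and the Dlg2 window 2. CBX8 peaks of both libraries covered the Sv2b window and touched the Syt2 window, whereas the CBX8 peaks near the printed Nlgn1 and Dlg2 windows lay beyond their ends. Another window of Nlgn1, at its outer start, held 14 CpG dinucleotides.

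H3K27me3 was the mark these genes shared. It was found at the starts of 25 of the 36 genes (69.4%), against 21.8% of all background genes. The active zone genes (5 of 6) and the vesicle and fusion genes (14 of 19) were marked most often, followed by the postsynaptic genes (4 of 6), and fewest of the adhesion genes were (2 of 5). These groups are small, and their order differed in the wider list of synapse genes described below. In 20 of the 25 genes (55.6% of the members) H3K27me3 stood without H3K27ac, a state of 14.7% of background genes. H3K27ac without H3K27me3 was found at 8 members (22.2%, against 52.5% of background genes), and both marks at 5 (13.9%, against 7.11%). Counted with or without H3K27me3, 13 members were acetylated (36.1%), fewer than the 59.6% of all genes. Only Syn1 and Nlgn3 carried none of the 4 (5.56%, against 24.6%). No list test was made, because the genes were chosen with results of these data known.

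PRC1 was seen at fewer of the genes. RING1B marked 9 members (25%, against 14.1% of background genes) and CBX8 marked 10 (27.8%, against 6.72%). Either protein was found at 14 members (38.9%, against 16.3%), and both at 5 (13.9%, against 4.53%), namely Syt2, Syn2, Rims1, Nlgn1 and Dlg2. These 5 came from all 4 groups. Of the 14 members with RING1B or CBX8, 13 also carried H3K27me3, and Syn2 was the exception under the deposited annotation. Among the 3049 background genes with RING1B or CBX8, 1446 also carried H3K27me3.

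**Figure D1:**
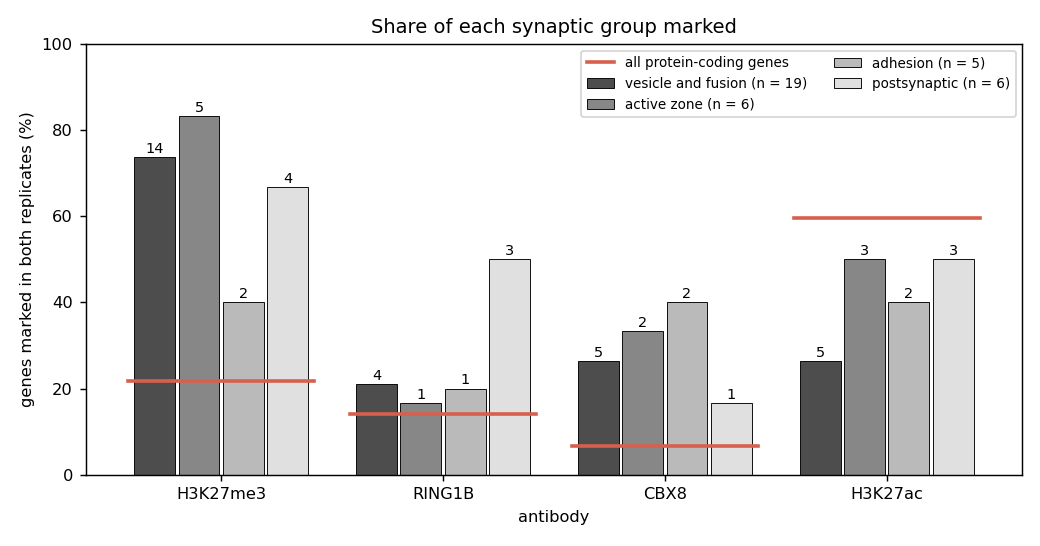
Percentage of the genes of each synaptic group (bars, with the number of marked genes above) that had a peak of both replicates within 2 kb of a start, by antibody; the red line is the share of all 18745 background genes. H3K27me3 bars stand above the line in all 4 groups, and H3K27ac bars stand below it in all 4.

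In each single library the members' share was above that of background genes for H3K27me3, RING1B and CBX8 and below it for H3K27ac. A peak within 2 kb of a start was listed for 26 and 30 members in the H3K27me3 libraries (77.8% ± 7.86, SD, n = 2), against 29.6% ± 2.1 of background genes. The H3K27ac libraries listed one for 17 members each (47.2%), against 64.0% ± 1.07 of background genes. For RING1B the members' share was 50% ± 31.4 and that of background genes 31.8% ± 23.8 (SD, n = 2), and for CBX8 the shares were 41.7% ± 11.8 and 18.6% ± 14.1. The spread between the 2 RING1B libraries was thus larger than the difference between members and background. Within each of those libraries the members' share was the higher: 27.8 against 15.0% and 72.2 against 48.6% for RING1B, and 33.3 against 8.64% and 50 against 28.5% for CBX8. The members are long genes, with a median length of 68119.5 bp against 19942 bp, and the peaks named a median of 2 transcripts for each against 1, a count that itself depends on where peaks lie. With a single start per gene, the outermost in RefSeq, H3K27me3 marked 66.7% of members and 22.3% of background genes, RING1B 22.2 and 14.1%, CBX8 19.4 and 6.08%, and H3K27ac 38.9 and 63.8%.

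The fold values below are the authors' enrichment of a peak over its control, given for replicate 1 and then replicate 2, and are those of the strongest peak within 2 kb of a start. Histone mark and PRC1 folds are on different scales and are not compared with each other. A percentile gives the rank of that fold among all genes with a peak at a start in the same library.

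Among the synaptotagmins, the calcium sensors of exocytosis and their relatives, all 7 members were marked by H3K27me3. Syt2, a fast calcium sensor for release, had the folds 5.11 and 4.95, which rank at the 95.8 and 93.0 percentiles. It also carried RING1B (5.72 and 7.82) and CBX8 (5.93 and 11.1), and no H3K27ac peak at a start in either library. Syt6 had H3K27me3 folds of 4.78 and 5.19 in peaks 31213 and 32479 bp wide, with RING1B at 5.37 and 6.92 and CBX8 in replicate 2 only (6.25). Syt1, the main sensor of synchronous release in many neurons, had H3K27me3 at 3.73 and 3.51, and each of its other peaks was in a single library (RING1B 8.11 in replicate 2, CBX8 5.38 and H3K27ac 2.51 in replicate 1). Syt4, Syt5 and Syt3 had H3K27me3 folds of 4.46 and 3.72, 3.22 and 3.28, and 3.31 in both libraries. Syt4 differed from the others in the width of its peaks, 417 and 390 bp, with no RING1B, CBX8 or H3K27ac peak at its start in any library. Syt3 also carried CBX8 (5.44 and 5.15), in peaks 2967 bp apart, with RING1B in replicate 1 only (5.68) and H3K27ac in replicate 2 only (3.29). Syt7 serves slower forms of release and exocytosis outside neurons too, and it was the only one of these 7 with H3K27ac (4.96 and 4.36). It also carried H3K27me3 (4.58 and 3.95) and CBX8 (4.61 and 5.52), with RING1B in replicate 2 only (7.92). In the wider list described below, Syt8, Syt11, Syt12 and Syt17 carried H3K27ac without H3K27me3. Syt9, Syt10, Syt13, Syt14, Syt15 and Syt16 in that list carried H3K27me3 without H3K27ac.

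The synapsins, which tether vesicles in the reserve pool, were each in a different state. Syn1 had a single peak at its start, H3K27me3 of 2.86 in replicate 2, and no other peak was annotated to it in any of the 8 lists. Syn2 carried RING1B (7.81 and 4.21) and CBX8 (7.83 and 7.26). Its deposited annotation gave H3K27me3 at a start in replicate 2 only, but a H3K27me3 peak of 4.13 and 4.84 covered the Syn2 start in both libraries and was assigned to Gm17733, a gene that begins beside it on the opposite strand. A RING1B peak of replicate 2 over the same start (6.08) was likewise assigned to Gm17733. Syn3 was acetylated (8.96 and 10.4), with no H3K27me3, RING1B or CBX8 peak within 2 kb, and its nearest H3K27me3 peaks lay just outside that limit, at 2844 and 2389 bp (2.82 and 2.8).

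Other vesicle membrane proteins lay mostly under H3K27me3. Sv2b, a vesicle glycoprotein, had the highest CBX8 folds of the vesicle group, 10.3 and 13.2, in peaks of 1425 and 1877 bp. Its H3K27me3 folds were 4.29 and 5.02, and RING1B was listed in replicate 2 only, at 9.87. Sv2a, its close relative, had weaker H3K27me3 (3.08 and 2.44) and a CBX8 peak in replicate 2 only (5.15). Synaptophysin (Syp), the classical vesicle marker, had H3K27me3 at 3.35 and 2.87 and nothing else at its start.

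The SNARE proteins and complexins, which carry out and clamp fusion, were divided. Snap25, the neuronal plasma membrane SNARE, had H3K27me3 at 3.67 and 3.70 and no H3K27ac at its start. Cplx1 and Cplx2 had H3K27me3 at 3.99 and 4.6, and at 3.53 and 3.67. Vamp2, the vesicle SNARE, was acetylated at 9.38 and 9.82. The peaks were 16552 and 15470 bp wide and also touched Per1, so the acetylation cannot be assigned to Vamp2 alone. RING1B was listed at Vamp2 in replicate 2 only (3.47). Stx1a, its partner on the plasma membrane, was acetylated at 5 and 3.9, and H3K27me3, RING1B and CBX8 were each listed there in a single library (2.43, 6.14 and 5.67). Vamp1 had H3K27ac at 8.92 in both libraries, RING1B at 4.55 and 4.99, and H3K27me3 at 3.10 and 2.84.

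**Figure D2:**
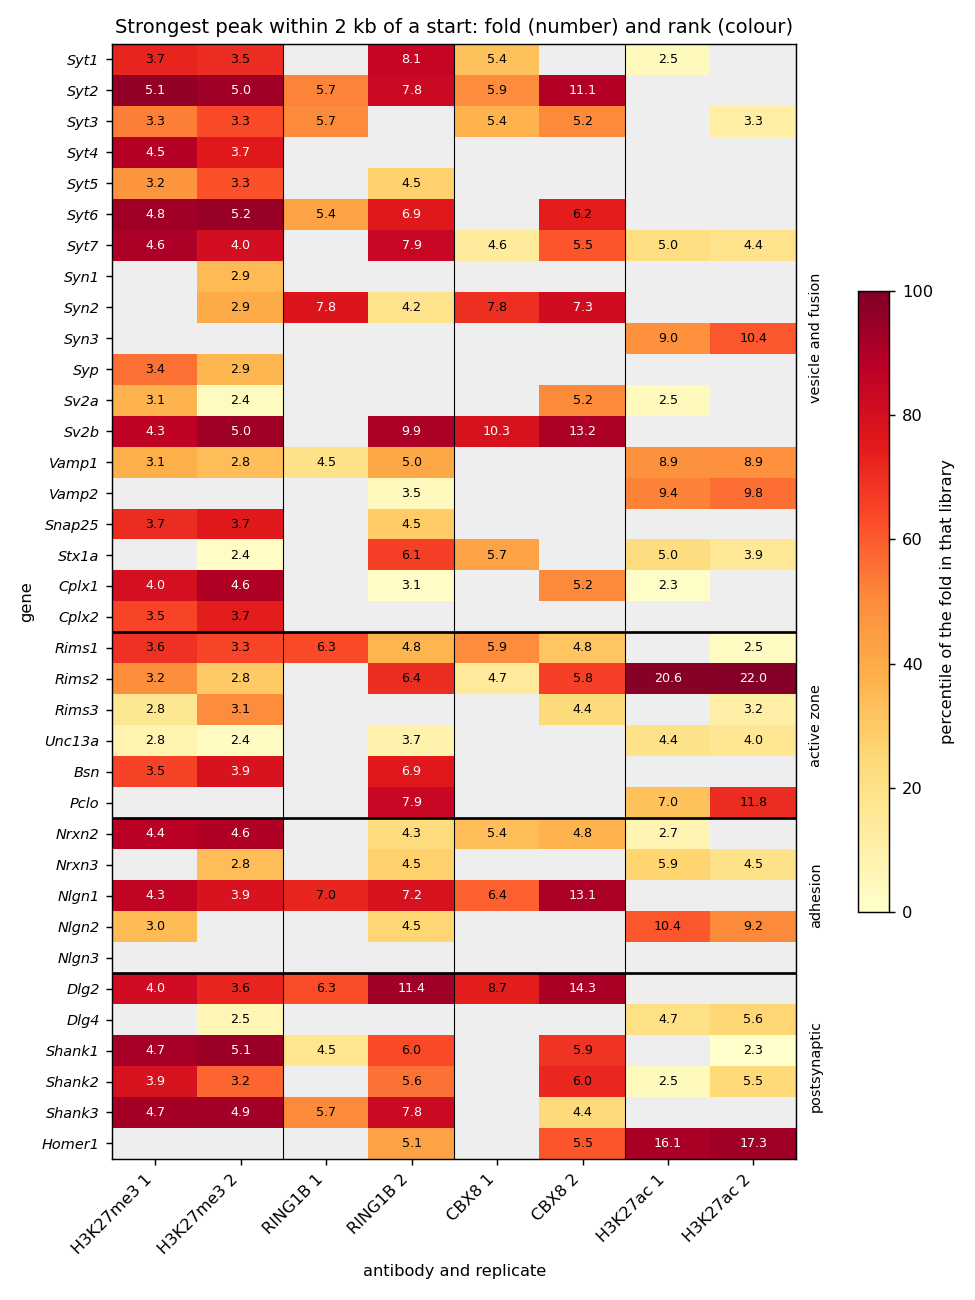
Fold of the strongest peak within 2 kb of a start for each of the 36 genes (rows, by group) in each of the 8 libraries (columns); the number is the authors' fold, the colour its percentile within that library, and grey means that no peak was listed. The H3K27me3 columns are filled for 26 and 30 genes, and the darkest H3K27ac cells are those of Rims2 and Homer1, with folds of 16.1 to 22.

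The Cplx2 result depended on which start was used. The deposited annotation placed its start near an internal transcript, with H3K27me3 only. Within 2 kb of the outermost RefSeq start, H3K27ac was listed at 4.17 and 14.5, RING1B at 6.02 and 5.87, and H3K27me3 at 2.68 and 3.84. These peaks were annotated to Cplx2 as distal peaks, 66.5 to 68.4 kb upstream of the internal start. CBX8 was listed at the outermost start in replicate 2 only (4.49). Cplx2 thus had H3K27me3 at both starts and acetylation at the upstream one. The 2 acetylation folds there lay far apart, in libraries made from different lines.

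In the active zone, 5 of 6 genes carried H3K27me3 and 3 carried H3K27ac. Rims1, a scaffold that links vesicles to calcium channels, was marked by H3K27me3 (3.64 and 3.34), RING1B (6.31 and 4.81) and CBX8 (5.93 and 4.78). The CBX8 peak of 4.78 lay at another Rims1 start, 373 kb on. At the first start CBX8 was 5.93 and 4.05, and the CBX8 peaks of the replicates did not overlap there. H3K27ac was listed at Rims1 in replicate 2 only (2.48). Rims3, a short relative, had H3K27me3 (2.84 and 3.07) as its one mark of both libraries. Bassoon (Bsn), a giant cytomatrix protein, had H3K27me3 at 3.54 and 3.85, with RING1B in replicate 2 only (6.92). Piccolo (Pclo), the homologue of bassoon, had no H3K27me3 at a start and was acetylated at 7 and 11.8, with RING1B in replicate 2 only (7.93). Unc13a, the priming factor Munc13-1, had weak folds of both marks, 2.76 and 2.44 for H3K27me3 and 4.44 and 4.03 for H3K27ac, with RING1B in replicate 2 only (3.73). Rims2 had the highest acetylation of the 36 genes, 20.6 and 22, at the 98.2 and 98.6 percentiles. H3K27me3 at Rims2, 461 kb from the first start, was 3.25 and 2.79, and CBX8 at the first start, where the acetylation was, was 4.66 and 5.58. RING1B was listed at Rims2 in replicate 2 only, at 6.43 at the first start, and the highest CBX8 fold of replicate 2 (5.81) was at the start with H3K27me3.

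The adhesion genes were the least uniform group. Nlgn1, the neuroligin of excitatory synapses, carried H3K27me3 (4.27 and 3.85), RING1B (7.02 and 7.22) and CBX8 (6.43 and 13.1) and had no H3K27ac at a start. Nlgn2, the neuroligin of inhibitory synapses, was acetylated (10.4 and 9.17), in a peak that also touched Tmem256. H3K27me3 (3.05, replicate 1) and RING1B (4.51, replicate 2) were each listed at Nlgn2 in a single library. Nlgn3 had no peak of any antibody within 2 kb of a start, and its nearest was an H3K27me3 peak of replicate 2 at 2514 bp. Of the neurexins, which bind neuroligins from the presynaptic side, Nrxn2 had H3K27me3 at 4.40 and 4.59 in peaks up to 31556 and 75481 bp wide, the widest among the members, with CBX8 at 5.42 and 4.78. The H3K27me3 fold of 4.40 was at the first start, in a peak that also touched Rasgrp2. That of 4.59 was at a start 79.1 kb on, in a peak that also touched Slc22a12. RING1B (4.35, replicate 2) and H3K27ac (2.72, replicate 1) were each listed at Nrxn2 in a single library. Nrxn3 was acetylated at 5.88 and 4.49, with H3K27me3 (2.84) and RING1B (4.51) in replicate 2 only.

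The postsynaptic scaffolds act in the cell that receives the signal, and 3 of the 6 had H3K27me3 without H3K27ac while 2 had H3K27ac without H3K27me3. Dlg2, a PSD-95 family scaffold, had H3K27me3 (4.05 and 3.58), RING1B (6.31 and 11.4) and CBX8 (8.65 and 14.3). Dlg4, which encodes PSD-95 itself, was acetylated (4.66 and 5.63), with H3K27me3 in replicate 2 only (2.48). Shank1 and Shank3, master scaffolds of the postsynaptic density, had H3K27me3 of 4.67 and 5.07 and of 4.70 and 4.93, all 4 values between the 91.8 and 93.9 percentiles of their libraries, and RING1B of 4.51 and 6.02 and of 5.68 and 7.82. CBX8 was listed in replicate 2 only at both, at 5.89 in Shank1 and 4.41 in Shank3, and H3K27ac in replicate 2 only at Shank1 (2.32). Shank2 carried H3K27me3 (3.94 and 3.20) and H3K27ac (2.51 and 5.45), with RING1B (5.6) and CBX8 (5.98) in replicate 2 only. Homer1 links SHANK proteins to glutamate receptors and also has a short form made in many cells. It was acetylated at 16.1 and 17.3, at the 91.1 and 93.3 percentiles, with no H3K27me3 at a start. RING1B (5.07) and CBX8 (5.52) were listed at Homer1 in replicate 2 only.

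Compared with other marked genes, the members had wider H3K27me3 peaks, by the widest at any start, and RING1B folds close to the median. Over the 25 members marked by H3K27me3 the median fold was 3.73 and 3.67, against 3.41 and 3.30 over all 4083 marked genes. Their widest peak at a start had a median of 3229 and 8025 bp, against 2008 and 4219 bp. This maximum runs over all starts of a gene, and the peaks named a median of 2 transcripts per member against 1 per background gene. Width at a single start per gene was not computed. The median RING1B fold over the 9 marked members was 5.72 and 6.92, against 5.71 and 7.44 over all 2640 marked genes, and the median CBX8 fold over 10 members was 5.93 and 6.54, against 6.43 and 8.83 over 1259 genes. Among all genes with a peak at a start in the library, the members' median rank was the 51.7 and 75.5 percentile for RING1B and the 49.8 and 73.4 percentile for CBX8. The highest member values, 11.4 for RING1B and 14.3 for CBX8 (both Dlg2, replicate 2), were far below the highest of any gene in those libraries, 85.2 and 98.2. Acetylated members had a median fold of 7 and 8.92, against 9.43 and 9.53 over 11176 acetylated genes.

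Members with PRC1 had the higher median H3K27me3, by the strongest and the widest peak at any start. The median H3K27me3 fold was 4.29 and 3.95 over the 13 members that also had RING1B or CBX8, and 3.54 and 3.40 over the 12 that had neither. The ranges overlapped, from 3.10 to 5.11 and from 2.76 to 4.46 in replicate 1. Median widths of the widest peak at a start were 4156 and 14674 bp with PRC1 and 1629.5 and 5534.5 bp without it. The same order held over all genes marked by H3K27me3, with 3.90 and 4.02 over 1446 genes with RING1B or CBX8 and 3.26 and 3.12 over 2637 without. Peaks at several starts were more frequent among the members with PRC1, and a maximum over starts rises with their number. Values at a single start per gene were not compared. The marks were paired by gene, so they could lie at different starts, as at Rims2.

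**Figure D3:**
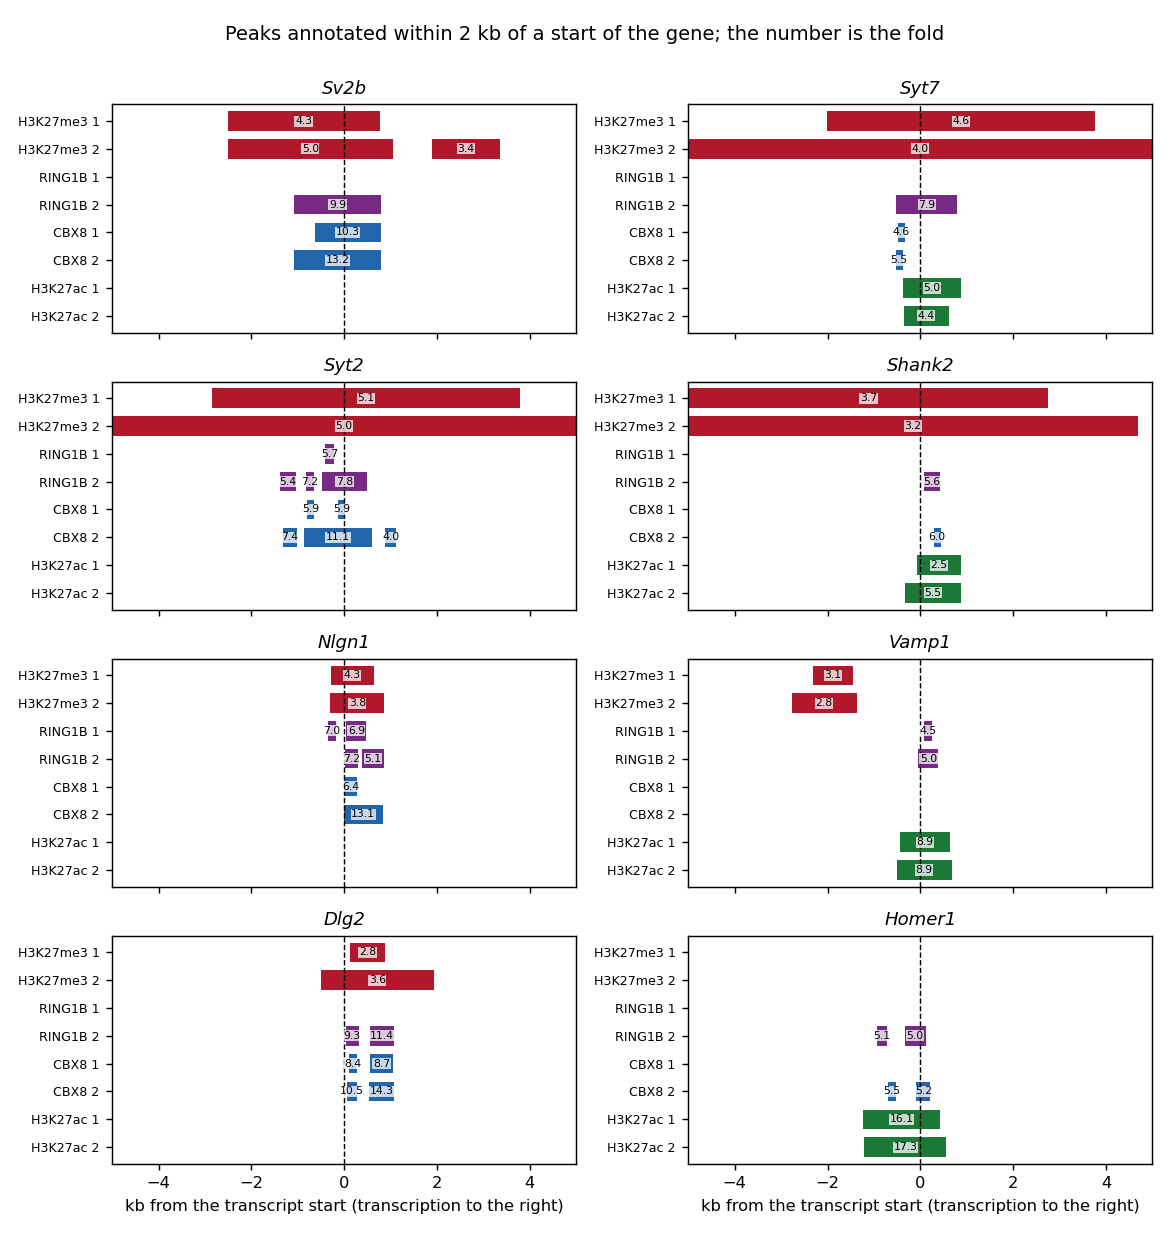
Peaks of the 8 libraries that the deposited annotation placed within 2 kb of a start of 8 genes, drawn to scale over 5 kb on either side of that start (the inner start of Nlgn1 and the second of Dlg2) with transcription to the right; each bar is a peak, the number is its fold and bars that run to the edge continue beyond it. In Sv2b, Syt2, Nlgn1 and Dlg2 (left) RING1B or CBX8 peaks lie on or at the edge of H3K27me3 with no H3K27ac; in Syt7 and Shank2 (right) H3K27ac lies inside H3K27me3, in Vamp1 beside it, and Homer1 has H3K27ac without H3K27me3.

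At the members, how closely the replicates matched differed between the antibodies. The H3K27ac peaks of both replicates overlapped at all 13 acetylated members, and the H3K27me3 peaks at 24 of 25, with Unc13a the exception by 69 bp. RING1B peaks overlapped at 6 of 9 members and CBX8 peaks at 7 of 10. Overlap was not counted over all marked genes, so whether these shares are usual for each antibody was not tested. At Dlg2 the RING1B peaks of the replicates were at different starts of the gene, more than 1 Mb apart, and at Shank3 they were 3646 bp apart. The RING1B call at these genes therefore rests on different places in the different libraries.

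Of the 5 members with H3K27me3 and H3K27ac, 3 had overlapping peaks of the marks. The libraries paired by replicate number came from different lines (line 1 with line 2, and line 2 with line 3). In Syt7 the acetylated peak lay wholly inside the H3K27me3 peak, over 1247 and 957 bp. In Shank2 the overlap was 944 and 1208 bp, and in Unc13a 512 and 1039 bp. At Vamp1 the marks were neighbours, with H3K27ac over the start and H3K27me3 upstream at a gap of 999 and 860 bp. At Rims2 they were at different promoters, since the acetylated peak was at the first start and the H3K27me3 peaks of both replicates at a start 461 kb further on. Since these values set different lines side by side, the libraries of line 2 alone were also compared, H3K27me3 replicate 2 (passage 11) with H3K27ac replicate 1 (passage 13). Both listed a peak near a start for 12 members (33.3%, against 13.4% of background genes), and the peaks overlapped at 7. The overlap was 1247 bp in Syt7, 944 bp in Shank2 and 1039 bp in Unc13a, and 209 to 605 bp in Cplx1, Nrxn2, Sv2a and Syt1. In Cplx1, Nrxn2, Sv2a and Syt1 the strongest of these H3K27ac peaks had low folds of 2.34 to 2.72, at the 1.47 to 7.56 percentiles. None of those genes had an H3K27ac peak at a start in replicate 2. Whether overlapping marks are on the same chromosomes or in different cells cannot be told apart.

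Libraries of different antibodies made from the same culture were compared in the same way. H3K27me3 and RING1B of line 1 at passage 12 both listed a peak for 9 members (25%, against 7.97% of background genes), which overlapped at 8 of them, among them Syt2, Nlgn1 and Dlg2. RING1B and CBX8 of line 2 at passage 19 did so for 11 members (30.6%, against 7.62%), and the peaks overlapped at 9, including Sv2b by 1425 bp and Dlg2 by 490 bp. In line 3 at passage 14, CBX8 and H3K27ac were both listed for 8 members (22.2%, against 18.6%), a share near the background, and overlapped at Homer1, Rims2 and Shank2. Each of these counts rests on 1 library per antibody. Overlap of different antibodies, here and in line 2 above, was counted for the members only, without a background share.

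Several members had distinct starts in distinct states. Peaks were listed at the starts of 35 members, and in 14 of them at more than 1 start, with 59 starts in all. Starts with peaks were not counted over background genes, which by the median are shorter and had fewer transcripts named. Whether several starts with peaks are usual was therefore not tested. In Dlg2, the first start named by a peak (chromosome 7, position 91090786 of mm10) had H3K27me3 at 4.05 and 2.83, RING1B in replicate 1 only (6.31) and CBX8 in replicate 2 only (8.09). The second (position 92234970, 1140 kb on) had H3K27me3 at 2.78 and 3.58, CBX8 at 8.65 and 14.3, and RING1B in replicate 2 only (11.4). CBX8 in both libraries was therefore seen only at the second of these Dlg2 starts, whose promoter window is the one printed above. A start still further out in RefSeq (position 90476188), which lies beside Tmem126b, was under H3K27ac peaks of 9.16 and 6.75 assigned to Tmem126b. Nlgn1 had H3K27me3 at both of its starts, 4.18 and 3.85 at the outer one and 4.27 and 3.75 at the inner one 179 kb on. Both PRC1 proteins in both libraries were listed only at the inner Nlgn1 start.

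Some genes with several starts carried the marks unevenly. Syt2 had RING1B and CBX8 at its first start, and only H3K27me3 (4.74 and 4.06) at the second, 62.6 kb on. Shank2 had H3K27me3 at 3 starts and H3K27ac in both libraries at the first of them alone. Shank1 had RING1B of both libraries at its first start (4.51 and 3.61) and H3K27me3 of both at another, 31.8 kb on (4.67 and 5.07). Shank3 had H3K27me3 peaks of both replicates assigned to 4 of 6 starts, with folds between 3.03 and 4.93. H3K27me3 peaks of both replicates also lay within 2 kb of the Shank3 starts 23.9 and 43.9 kb from the first. Those peaks were assigned wholly or partly to neighbouring starts, so the count of 4 reflects the assignment. The outermost RefSeq start of Shank2 (chromosome 7, position 143978077) also had H3K27me3 (3.87 and 3.28), RING1B (4.06 and 5.19) and H3K27ac (2.67 and 4.97), in peaks assigned to Mir3105. Nrxn3 was acetylated in both libraries only at the third of its starts, 1090 kb from the first. Requiring both replicates at the same start left the H3K27me3, CBX8 and H3K27ac counts as they were and lowered RING1B from 9 to 7 members, without Dlg2 and Shank3.

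**Figure D4:**
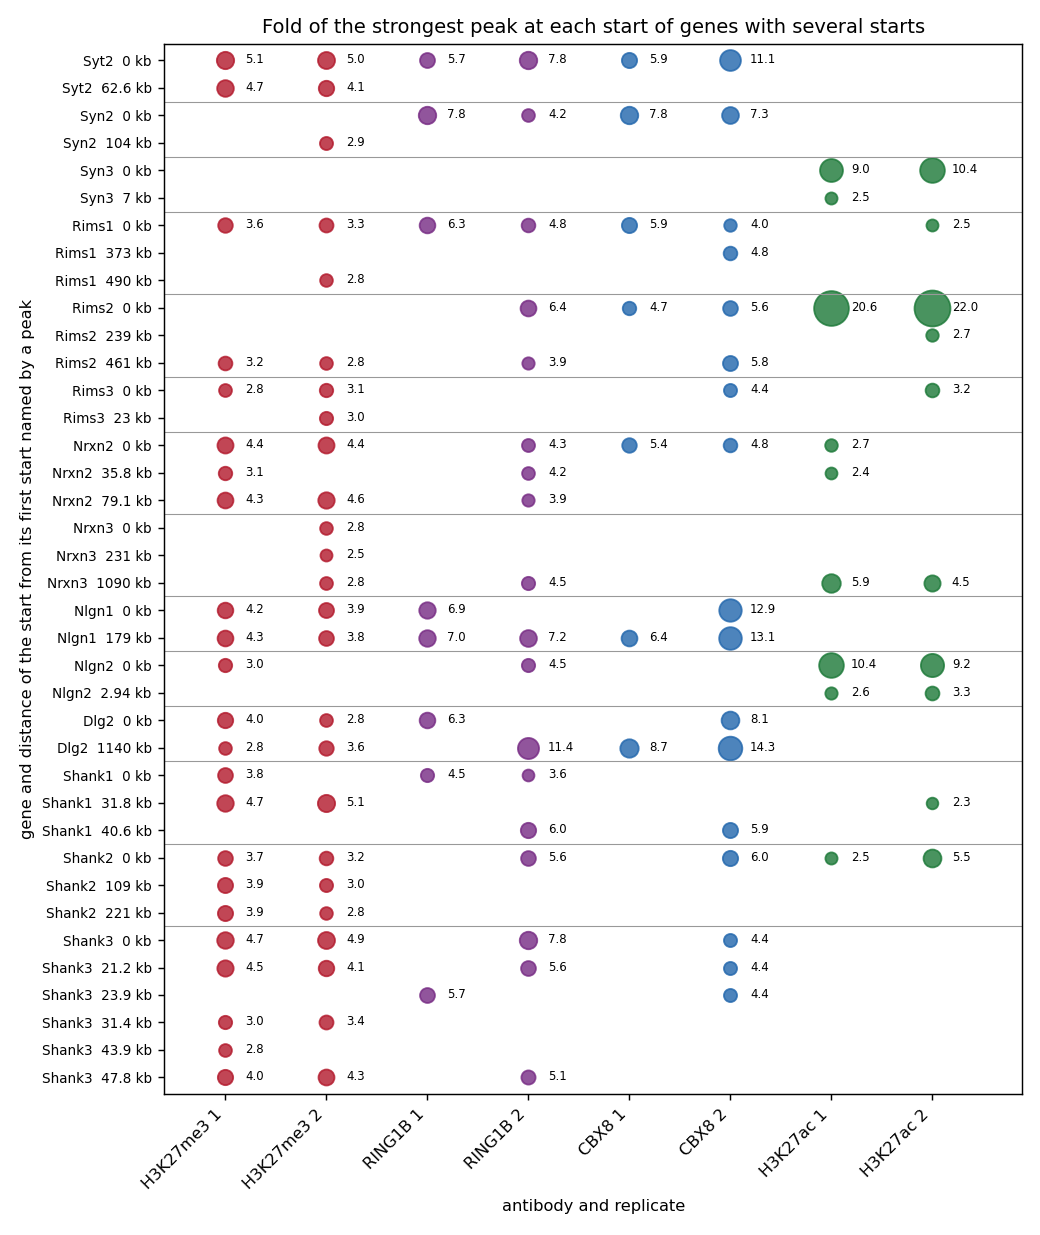
Fold of the strongest peak assigned to each start (rows, with the distance in kb from the first start of the gene that a peak named) for the 14 genes with peaks at several starts, in each library (columns); larger circles are higher folds, scaled separately for histone marks and for RING1B and CBX8. A broad peak that also covers a neighbouring start is shown only at the start it was assigned to. Rims2 is acetylated at 0 kb and has H3K27me3 in both libraries only at 461 kb, and Nrxn3 is acetylated only at 1090 kb.

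Acetylated peaks away from the starts were annotated to members that had none at a start. Nlgn1 had 23 and 19 such H3K27ac peaks, the strongest at 14.8 and 12.4, but these lay 1460220 and 1460210 bp from the nearest named start, and the assignment is by distance alone. Snap25 had 3 and 5, the strongest (8.42 and 6.48) at -33015 and -33532 bp, upstream of its start. Nlgn3 had 2 in each library, the strongest (8.38 and 7.71) at 32726 and 32724 bp downstream of its start. Syt6 had 5 and 4, the strongest (6.77 and 6.24) at 24100 and 24197 bp. Syn2 had 8 and 8, the strongest at 6.99 and 9.25. Distal Polycomb peaks were seen as well: at Rims1 a region about 24 kb upstream had H3K27me3 at 4.71 and 5.86, above the values at its start, and RING1B at 6.91 and 4. Which gene a distal peak acts on was not tested.

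The CpG content of the promoter windows did not separate the members by mark. The 41 member windows had a median of 16 CpG dinucleotides (0 to 40), against 13 over all 21263 protein-coding windows, with an interquartile range of 4 to 24. Member windows with H3K27me3 within 2 kb had a median of 16.5 (26 windows), and those without it 12 (15 windows). For RING1B the medians were 19 (9 windows) and 13, and for H3K27ac 17.5 (10 windows) and 14. Over all windows, those with RING1B had a median of 24 against 11 without, and those with H3K27ac 20 against 3. For H3K27me3 the order over all windows was the reverse of that in the members, 12 with it and 13 without. For CBX8 the orders differed too. The member medians were 13.5 with and 16 without, whereas over all windows they were 19 and 12. The 8 member windows with a CBX8 peak within 2 kb include those of Dlg2, Nlgn1 and Sv2b printed above, though at Dlg2 and Nlgn1 the peaks did not reach the window itself. These are descriptions of 41 windows from 25 genes, some of which overlap.

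**Figure D5:**
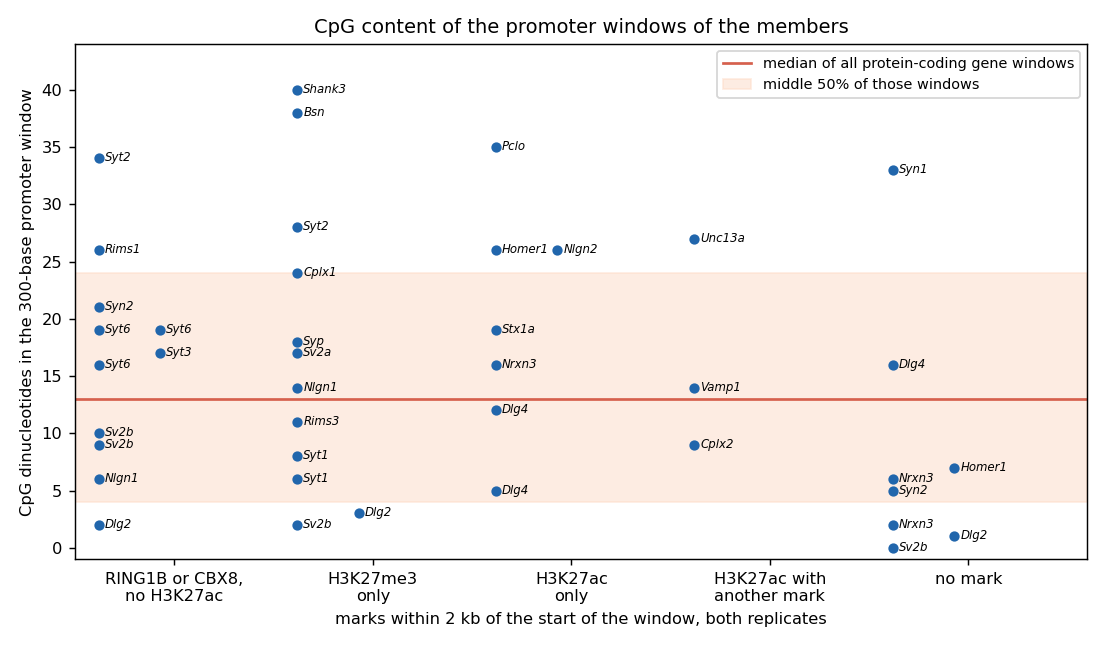
Number of CpG dinucleotides in each 300-base promoter window of 25 members (points, labelled by gene; a gene with several starts appears more than once), by the marks of both replicates within 2 kb of that start; the red line and band are the median of 13 and the interquartile range, 4 to 24, of all protein-coding windows. Windows with RING1B or CBX8 and no H3K27ac range from 2 (Dlg2) to 34 (Syt2), and those with H3K27ac only from 5 (Dlg4) to 35 (Pclo).

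The windows were also searched on both strands for the left and right parts of RE1, the element bound by the repressor REST, which silences neuronal genes outside neurons. The left part was spelled TTCAGCACC and the right part GGACAGCGC, whose core GGACAG was also searched alone and overlaps it. The left part was found in 3 of 41 member windows (7.32%), those of Nlgn1 (the inner start), Syn1 and Unc13a, against 0.414% of all 21263 windows. The right part was found in 1 (2.44%, against 0.536%), that of Unc13a. The core was in 26.8% against 22.3%, the E-box CANNTG in 68.3% against 69%, and the GC box GGGCGG in 51.2% against 46.2%. In the windows of Unc13a and Syn1, printed next, the capitals mark these RE1 parts.
Unc13a, chr8:71671708-71672007, minus strand: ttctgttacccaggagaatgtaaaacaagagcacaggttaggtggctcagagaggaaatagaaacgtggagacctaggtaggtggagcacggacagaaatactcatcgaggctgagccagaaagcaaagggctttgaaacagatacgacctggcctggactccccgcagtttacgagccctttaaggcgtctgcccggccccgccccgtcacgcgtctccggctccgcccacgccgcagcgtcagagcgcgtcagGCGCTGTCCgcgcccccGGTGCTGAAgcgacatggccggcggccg
Syn1, chrX:20920869-20921168, minus strand: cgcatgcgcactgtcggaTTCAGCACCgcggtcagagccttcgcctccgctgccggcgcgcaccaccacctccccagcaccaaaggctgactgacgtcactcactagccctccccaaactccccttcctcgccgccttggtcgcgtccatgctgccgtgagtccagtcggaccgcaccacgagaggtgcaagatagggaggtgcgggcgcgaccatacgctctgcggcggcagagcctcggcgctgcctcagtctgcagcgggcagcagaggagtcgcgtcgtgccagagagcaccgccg
In Unc13a both parts lay just after the start on the strand opposite to transcription, with 8 bases between them. Syn1 carried no mark in both libraries, Unc13a weak H3K27me3 with H3K27ac, and Nlgn1 H3K27me3 with RING1B and CBX8, so the 3 windows with the left part were in 3 different states. REST was not profiled here, and a match of letters is not a bound site.

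The marks were also counted in a wider list of 76 other synapse genes, of which 74 were named in the peak lists. H3K27me3 marked 36 of them (48.6%, against 21.8% of background genes), H3K27ac 35 (47.3%, against 59.6%), RING1B 13 (17.6%, against 14.1%) and CBX8 12 (16.2%, against 6.72%). The RING1B share was thus near the background. For H3K27me3 the groups stood in another order than among the 36 genes. It marked 9 of 14 other adhesion genes, 6 of 10 postsynaptic, 5 of 11 active zone and 16 of 39 vesicle and fusion genes. Of the 39 other vesicle and fusion genes 23 were acetylated (59%), close to the background share of 59.6%. They included the SNARE genes Vamp3 (16.2 and 13.9), Stx3 (14.9 and 13.1) and Stx4a (15.6 in both), and Nsf (11.2 and 10.2), the ATPase that takes SNARE complexes apart. Sv2c, a paralogue of Sv2a and Sv2b in the same list, had H3K27me3 (5.36 and 4.73). By the weaker replicate, the highest acetylation was at Dlg1 (21.0 and 21.4), a scaffold of epithelial junctions and synapses, followed by Stxbp5 (16.6 and 18.8) and Stx4a.

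RING1B and CBX8 together were found at 8 of the 74 (10.8%, against 4.53% of background genes), and 6 of these were adhesion genes (Lrrtm1, Lrrtm3, Slitrk5, Cadm2, Cbln1 and Cbln2) out of 14, with Dlgap1 and Dlgap2 out of 10 postsynaptic genes and none of 39 vesicle or 11 active zone genes. Cbln1, a secreted organizer that bridges neurexins to receptors, had RING1B at 37.9 and 29.5 and CBX8 at 30.7 and 54.4, above every one of the 36 genes. Lrrtm3, a postsynaptic partner of neurexins, had RING1B at 10.2 and 21.6 and CBX8 at 17.3 and 30.9. Cadm2 had RING1B at 9.13 and 22.6 and CBX8 at 21.8 and 14.0, and Dlgap2 had RING1B at 13.5 and 14.7 and CBX8 at 9.44 and 27.6. Lrrtm1 had RING1B at 10.4 and 7.82 and CBX8 at 5.44 and 35.3, and Slitrk5, a synapse organizer, had RING1B at 7.72 and 12.9 and CBX8 at 9.89 and 10.3. Cbln2, a relative of Cbln1, had RING1B at 5.37 and 9.03 and CBX8 at 4.94 and 18. Dlgap1, which binds PSD-95 and SHANK proteins, had RING1B at 6.94 and 6.71 and CBX8 at 4.94 and 8.83. Stx4a had RING1B at 12.1 and 36.1 with H3K27ac and without H3K27me3 or CBX8 at its start. Among the 36 genes, RING1B in both libraries stood with H3K27ac at Vamp1 only, or also at Cplx2 and Shank2 when the outermost RefSeq starts were used.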

How the data were processed

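Peak lists of 8 ChIP-seq libraries were used, 2 for each of 4 antibodies. The submitters' processing notes name MACS2 2.1.1.20160309, BWA 0.7.12, Trim Galore 0.4.3, bcl2fastq 2.17 and build mm10. For options and controls, nothing was given in the sources used here. The fold (a ratio over the control), the −log10 q-value and the −log10 p-value of each peak are the authors' deposited values, as are the nearest transcript and the distance to its start. The histone lists reach q-values of 0.1 (broad peaks) and the others 0.01 (narrow peaks). Peak names of CBX8 replicate 2 and of both H3K27ac lists hold the word combined, which is not explained, so pooling cannot be told apart from single libraries there. Read depth is unknown, so no interval is given, and an unlisted peak is not a fold of 0.

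With Python 3.11.15, pandas 2.3.3 and numpy 2.4.6, peaks were matched to the 36 genes by the deposited symbol and counted within 2000 bp of a start; the counting was tested on simulated data. The background is the 18745 protein-coding genes of the RefSeq table (GRCm38.p6) named in any list. Starts within 2000 bp of each other were taken as 1 start, and peaks overlapped when they shared at least 1 bp. In the comparison of starts, each peak was counted only at the start it was annotated to. The members, gene lists and alternatives were chosen with earlier results of these data known, so no test was made. Folds in both libraries are given for each mark of members with RING1B, CBX8 or both histone marks, and for the highest folds of each group. Peaks listed in a single library are given for many of the members but not all. Of the other synapse genes, RING1B and CBX8 folds are given for those with both, and folds for up to 3 genes per mark. Some genes of the lists are not reported here by name, while all counts include them. Vamp3, Stx3, Nsf and the starts of Cplx2 were singled out after their values were seen. Alternatives were other distances, stricter peaks, overlapping replicates, RefSeq starts, single libraries, libraries of the same line or culture, and another background.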

Additional observations from a re-analysis of the deposited data

How the results depend on the processing

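The H3K27me3 count stayed between 20 and 30 of 36 genes and the H3K27ac count between 13 and 17 over every alternative run. With stricter peaks (−log10 q of at least 2) H3K27me3 marked 55.6% of members and 12.3% of background genes, and within 5000 bp 80.6 and 27.6%. Under the same rules H3K27ac marked 36.1% of members each time, against 57.3 and 64.6% of background genes. RING1B rested on its shorter list: with 1 library the count was 10 to 26 in place of 9 (26 without replicate 1, when 48.6% of background genes were also called). CBX8 went from 10 to 5 with stricter peaks (−log10 q of at least 5), without Nrxn2, Rims1, Rims2, Syt3 and Syt7, and to 12 to 18 with 1 library. With the stricter peaks CBX8 marked 13.9% of members against 4.21% of background genes, and RING1B 22.2 against 11.2%. The single CBX8 libraries gave 33.3 against 8.64% and 50 against 28.5%. RING1B with CBX8 went from 5 to 3 with stricter peaks, 2 when the replicates had to overlap (Syt2 and Nlgn1), 3 with the outermost RefSeq start, and 5 to 9 with a library left out. H3K27me3 with H3K27ac went from 5 to 3 within 1000 bp, 8 within 5000 bp, 2 with stricter peaks (−log10 q of at least 2), and 6 to 9 with a library left out. The count with none of the 4 went from 2 to 4 within 1000 bp, to 4 with stricter peaks and to 1 or 2 with a library left out (1 without H3K27me3 replicate 1). For the counts of combined marks and of none of the 4, background shares under these rules were not computed. The cause was not tested, except that these rules admit fewer or more peaks by construction. With every symbol of the lists as background the shares were 20.7, 12.8, 6.28 and 55.6%. Both replicates at the same start was chosen after seeing the data and changed no count by over 1.5 times. Members close to the distance limit were Unc13a (1979 bp, H3K27me3 replicate 2) inside it and Nrxn3 (2109 bp, H3K27me3 replicate 1) outside. Within 1 line or culture, a comparison also chosen after seeing the data, RING1B with CBX8 was listed at 11 members and H3K27me3 with H3K27ac at 12, from 1 library of each. No paired analysis was possible because the results come from no test.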
